A study of Mus musculus with 12 samples.

Results

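T cell costimulatory and checkpoint ligands were followed in cultured mouse oligodendrocyte precursor cells (OPCs) as 8 genes chosen by name, Cd274, Pdcd1lg2, Cd80, Cd86, Cd40, Icosl, Cd276 and Lgals9, out of 55536 genes in the tables. OPCs are proliferating progenitors of oligodendrocytes, the cells that make myelin. They were obtained from pooled brains of mouse pups at postnatal day 4 to 6, either by sorting of Sox10-GFP+ cells or with magnetic beads against CD140a, and the labels do not say which route gave which library. Per the study's methods the reporter line carries Sox10:Cre and RCE:loxP(EGFP) alleles on backgrounds derived from C57BL/6 and CD1, so that EGFP marks the whole oligodendrocyte lineage and not OPCs alone. All cultures grew in medium with PDGFaa and bFGF. Ctr-OPCs received no further treatment, Dexa-treated OPCs received 1 µM dexamethasone, a synthetic glucocorticoid, for 48 h, and IFN-γ-treated OPCs received 100 ng/ml of the cytokine IFN-γ for 48 h. Each group had 4 replicates from different litters. The labels also carry a mouse model entry of EAE, an induced autoimmune disease of the central nervous system, although the described cells came from pups in culture.

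A T cell reads peptide on MHC molecules together with further signals from the presenting cell. CD80 and CD86 engage CD28 and CTLA-4, ICOSL engages ICOS, and CD40 is the receptor through which helper T cells carrying CD40L act on the presenting cell. PD-L1 (Cd274) and PD-L2 (Pdcd1lg2) engage the inhibitory receptor PD-1, galectin-9 (Lgals9) binds TIM-3, and B7-H3 (Cd276) is a B7 family protein whose receptor is not settled. IFN-γ acts through the kinases JAK1 and JAK2, induces IRF1, and is a known inducer of MHC genes and of PD-L1.

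Reads assigned to genes numbered 19209059 to 52074655 in the 11 complete tables. The table of Dexa replicate 3 was cut off after 33.7% of its transcripts and entered no fit over all genes. Of the ligands it listed Icosl and Lgals9 whole. All 8 OPC markers passed the filter on low counts, and their summed normalised count (reads divided by the size factor of the library) was 182578 to 420121 in Ctr-OPCs and 124362 to 291775 in IFN-γ-treated OPCs. In Ctr-OPCs 10 microglia and macrophage markers together reached 58.6 to 93.7 normalised counts, against 75.5 to 96.3 in IFN-γ-treated OPCs. Ptprc, which encodes CD45, had at most 8 reads in any complete library, and 6 T cell markers had at most 9 reads each. Because whole cultures were measured, a change in the number of expressing cells and a change in RNA per cell cannot be told apart.

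The MHC genes that give these ligands their setting were strongly induced. All 6 MHC class I genes rose in IFN-γ-treated OPCs over Ctr-OPCs, with log2 fold changes from 4.95 for Tap2, a subunit of the peptide transporter, to 9.41 for Nlrc5, the transactivator of class I genes. All 7 MHC class II genes that passed the filter also rose, from 5.11 for H2-DMa, a peptide exchange factor, to 10.06 for the class II α chain H2-Aa. The remaining one, H2-DMb2, was too low to be tested. Of the class II genes, H2-Aa, Cd74 and H2-DMb1 passed the filter only through the IFN-γ libraries, where they were high, so they had to differ once tested.

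Measured against this, the ligands fell into separate classes. Of the 8 genes, 5 passed the filter of at least 10 reads in at least 4 libraries, and 3 of these rose in IFN-γ-treated OPCs (Cd274, Lgals9 and Icosl), by DESeq2 as well as by edgeR. Over all 17919 genes tested, 8.02% rose by DESeq2 and 6.06% by edgeR. A further DESeq2 fit, called blocked below, held the replicate number as a term and called 29.2% of all genes in either direction. Cd276 and Cd80 were measured and did not pass the test. Pdcd1lg2, Cd86 and Cd40 stayed near zero, at no more than 10 reads in any complete library, and were not tested. The median log2 fold change of the 5 tested ligands was 1.42, against -0.02 over all genes tested. Both this median and the count of 3 include Lgals9. That gene passed the filter only through the IFN-γ libraries, so it had to differ once tested.

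**Figure D1:**
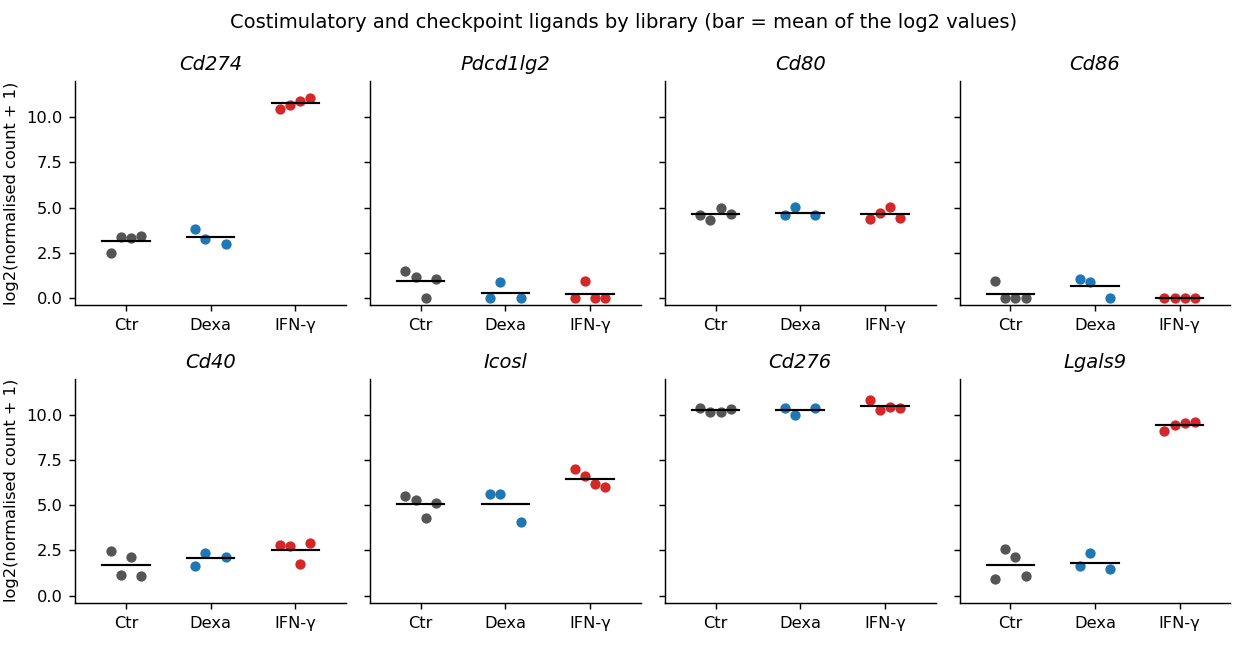
Normalised counts of the 8 ligands in the 11 complete libraries, as log2(normalised count + 1) on the vertical axis, by treatment group. Each point is a library and the bar is the mean of the log2 values. Cd274 and Lgals9 in IFN-γ-treated OPCs lie far above all other libraries, Icosl lies above them by a smaller step, and Pdcd1lg2, Cd86 and Cd40 stay at the bottom of the scale in all groups.

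The promoters of Cd274, Lgals9 and Pdcd1lg2 are shown because the first pair rose together while Pdcd1lg2, the neighbour of Cd274 on the same strand of chromosome 19, did not. RefSeq promoter sequences on GRCm38.p6 were found for 6 of the 8 genes and not for Cd86 or Cd40. Each sequence runs 5′ to 3′ from 250 bases before the transcription start to 30 bases after it, and capitals mark matches on either strand to GAAANNGAA, a spacing bound by IRF family factors, or to its 10-letter form with 1 more A at the end. The Cd274 promoter lies at chr19:29367188-29367467 on the plus strand, the Lgals9 promoter at chr11:78984895-78985174 on the minus strand and the Pdcd1lg2 promoter at chr19:29410669-29410948 on the plus strand.
Cd274: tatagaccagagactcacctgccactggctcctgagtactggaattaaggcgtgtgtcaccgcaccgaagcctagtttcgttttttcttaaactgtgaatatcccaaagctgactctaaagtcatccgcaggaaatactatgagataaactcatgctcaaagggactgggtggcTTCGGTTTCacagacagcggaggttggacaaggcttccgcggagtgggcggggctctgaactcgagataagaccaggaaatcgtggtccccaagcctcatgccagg
Lgals9: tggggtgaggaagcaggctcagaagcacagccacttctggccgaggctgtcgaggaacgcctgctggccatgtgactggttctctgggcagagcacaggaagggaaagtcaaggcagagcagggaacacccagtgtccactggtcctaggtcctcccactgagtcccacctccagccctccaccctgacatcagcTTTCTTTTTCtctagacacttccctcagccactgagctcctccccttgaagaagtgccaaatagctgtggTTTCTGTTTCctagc
Pdcd1lg2: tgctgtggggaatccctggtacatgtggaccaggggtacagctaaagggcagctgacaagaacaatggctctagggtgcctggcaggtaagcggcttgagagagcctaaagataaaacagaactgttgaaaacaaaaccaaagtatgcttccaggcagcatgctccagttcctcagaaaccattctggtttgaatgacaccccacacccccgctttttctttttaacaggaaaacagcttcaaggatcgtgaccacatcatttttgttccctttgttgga
The whole windows reach 50 bases past the start. In them Cd274 held 1 match to GAAANNGAA, beginning at base -76 and read on the opposite strand. Lgals9 held 2 matches to the 10-letter form, beginning at -55 and 16, each of which contains a match to the shorter form. Pdcd1lg2, Cd80, Icosl and Cd276 held none of these letters, although Icosl also rose with IFN-γ. For Cd80 the window lies at the start of transcript Cd80-201, which took at most 6.33% of the gene's reads in any complete library. The start of Cd80-202, at base 38455561, which took 93.7% to 100% of the reads, was not searched. Over all 32851 RefSeq promoters of this length, 8.56% held GAAANNGAA and 3.44% held the 10-letter form. The STAT-type spacing TTCNNNGAA occurred in 8.3% of all promoters and in 0 of the 6 found here. A match is a description of the letters and not a measured binding site.

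Cd274 encodes PD-L1, the ligand of PD-1, and lies on chromosome 19 at 29367455 to 29388095 (GRCm38). Its single annotated transcript collected 5, 15, 13 and 9 reads in Ctr-OPC replicates 1 to 4. It collected 1418, 1749, 1603 and 1684 reads in the IFN-γ-treated OPCs, and 12, 10 and 4 in Dexa replicates 1, 2 and 4. The IFN-γ libraries were all high and did not overlap with any other library. Normalised counts were 8.15 ± 2.40 in Ctr-OPCs (SD, n = 4) and 1772.5 ± 320.3 in IFN-γ-treated OPCs (SD, n = 4). The log2 fold change was 7.75 ± 0.29 (SE), with an adjusted p of 6.77e-153 by DESeq2 and 6.58e-09 by edgeR. Between libraries of the same replicate number the ratio was 307.0, 177.6, 208.7 and 221.2. With 42 Ctr reads in all, the pooled ratio of 210.7 had an exact 95% counting interval of 155.7 to 292.6, which covers counting error only.

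An annotated antisense gene, AC119228.1, lies within Cd274 on the opposite strand and shares 511 of the 3622 exonic bases of Cd274. It was picked after its values were seen, and it passed the filter only through the IFN-γ libraries, so it had to differ once tested. It had 1 to 6 reads in Ctr-OPCs and 393 to 498 in IFN-γ-treated OPCs, and its log2 fold change was 7.48 ± 0.44 (adjusted p of 9.33e-63, DESeq2, and 1.98e-06, edgeR). The library kit marks strand, but the sources used here do not say whether Salmon was run with strand, so reads of Cd274 and of the antisense gene in the shared bases cannot be told apart.

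Pdcd1lg2 encodes PD-L2, the other ligand of PD-1, and begins 22823 bases beyond the end of Cd274. It had 2, 2, 0 and 1 reads in Ctr-OPCs, 0, 1 and 0 in Dexa-treated OPCs and 0, 1, 0 and 0 in IFN-γ-treated OPCs. No group stood above another, and at most 2 reads came from any library. The pooled ratio of IFN-γ to Ctr rested on 1 read against 5 and was 0.274, with an exact 95% counting interval of 0.0058 to 2.45. The upper end of that interval lies far below the lower end for Cd274.

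Lgals9 encodes galectin-9, a secreted β-galactoside-binding lectin, and lies on chromosome 11. It had 1, 8, 5 and 1 reads in Ctr-OPCs, 2, 5, 0 and 1 in Dexa replicates 1 to 4, and 558, 730, 647 and 603 in IFN-γ-treated OPCs. The IFN-γ libraries were again all high and separate from the rest. It passed the filter through the IFN-γ libraries alone, so it had to differ once tested. Its normalised count rose from 2.6 ± 1.95 to 692.9 ± 99.2 (SD, n = 4 each), a log2 fold change of 7.89 ± 0.42 (adjusted p of 3.58e-77, DESeq2, and 1.25e-07, edgeR). The pooled ratio was 232.0 with an exact 95% counting interval of 140.4 to 415.1. The transcript of 1520 bases took 95.6% to 98.5% of the gene's estimated reads in the IFN-γ libraries, and another of 1586 bases took 1.45% to 4.42%. The split between transcripts is an estimate by Salmon.

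Icosl encodes the ligand of ICOS and lies on chromosome 10. It had 48, 61, 27 and 31 reads in Ctr-OPCs, 44, 57, 18 and 9 in Dexa replicates 1 to 4, and 126, 102, 61 and 50 in IFN-γ-treated OPCs. After normalisation the IFN-γ libraries lay at 64.2 to 125.2 and the Ctr libraries at 18.6 to 44.1, without overlap. Over all genes tested 8.66% had IFN-γ libraries all above the Ctr libraries. The log2 fold change was 1.42 ± 0.38 (SE, 95% interval 0.68 to 2.16), with an adjusted p of 0.00255 by DESeq2 and 0.0403 by edgeR. Every replicate number showed the rise, by 2.84, 2.55, 3.82 and 1.91 times. Its protein-coding transcript Icosl-201 held 53.1% to 91.7% of the reads in the IFN-γ libraries. The remainder varied: in IFN-γ replicates 2 and 4 it lay on transcripts annotated as retained introns, in replicate 3 on another protein-coding transcript (8.28%) and in replicate 1 on both kinds.

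Cd276 encodes B7-H3 and lies on chromosome 9. It had 1467, 1879, 1681 and 1197 reads in Ctr-OPCs, 1254, 1229 and 763 in Dexa replicates 1, 2 and 4, and 1840, 1302, 1191 and 1046 in IFN-γ-treated OPCs. Of the 8 ligands it was the only one with 763 or more reads in every complete library, and its groups overlapped. With IFN-γ the log2 fold change over Ctr was 0.22 ± 0.15 (SE, 95% interval -0.08 to 0.52), with an adjusted p of 0.427 by DESeq2 and 0.41 by edgeR. With replicate number as a term the adjusted p was 0.0723 by DESeq2 and 0.0712 by edgeR. Between libraries of the same replicate number the ratio was 1.36, 1.06, 1.2 and 1.03. Replicate 1 of the IFN-γ-treated OPCs, at 1828.2 normalised counts, was the highest of its group, and the other IFN-γ libraries lay at 1229.0 to 1388.2.

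Cd80 encodes a ligand of CD28 and CTLA-4 and lies on chromosome 16. It had 25, 31, 45 and 22 reads in Ctr-OPCs, 21, 37 and 13 in Dexa replicates 1, 2 and 4, and 20, 27, 27 and 16 in IFN-γ-treated OPCs. The groups overlapped throughout, with normalised counts of 24.3 ± 4.93 in Ctr-OPCs and 24.3 ± 5.37 in IFN-γ-treated OPCs (SD, n = 4 each). The log2 fold change was 0.00 ± 0.29 (SE, adjusted p of 0.995, DESeq2), with a 95% interval of -0.57 to 0.58. Changes within that interval are not excluded.

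Cd86 encodes the other shared ligand of CD28 and CTLA-4. It had 1, 0, 0 and 0 reads in Ctr-OPCs, 1, 1 and 0 in Dexa replicates 1, 2 and 4, and 0 in all IFN-γ libraries. A count of 0 over the 125845145 reads of the IFN-γ libraries allows up to 3 reads. Together with Pdcd1lg2 it stayed at or under 3 reads in every complete library.

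Cd40, the receptor for CD40L, lies on chromosome 2. It had 5, 2, 5 and 1 reads in Ctr-OPCs, 2, 5 and 2 in Dexa replicates 1, 2 and 4, and 6, 6, 2 and 5 in IFN-γ-treated OPCs. The groups overlapped, and the pooled ratio of IFN-γ to Ctr was 2.0 from 19 reads against 13, with an exact 95% counting interval of 0.939 to 4.41. Most of these reads were placed on shorter or non-coding transcripts: the longest coding transcript, Cd40-201, received 2 of the 19 IFN-γ reads. Without any filter on low counts, DESeq2 gave Cd40 a log2 fold change of 0.98 ± 0.71 (adjusted p = 0.523).

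**Figure D2:**
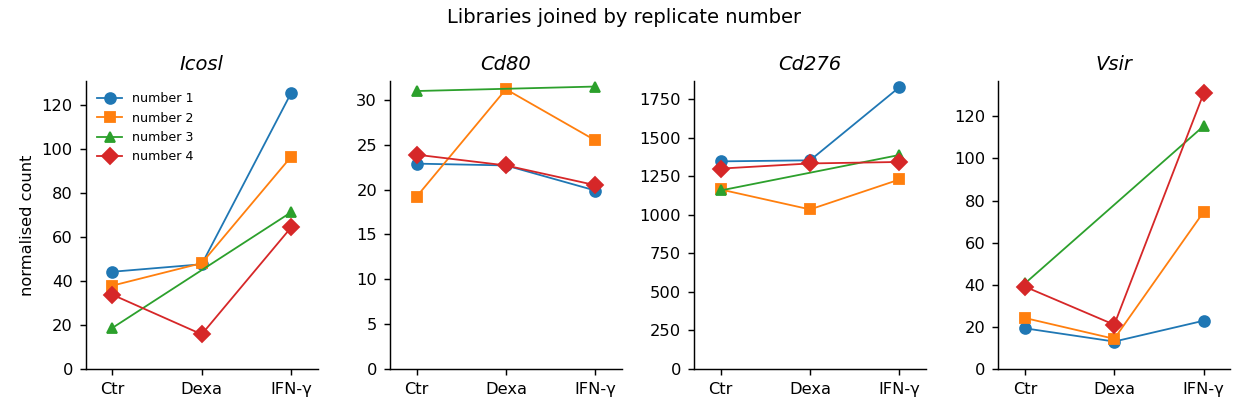
Normalised counts of Icosl, Cd80, Cd276 and the further ligand Vsir, by treatment group, with libraries of the same replicate number joined by a line. Icosl is higher with IFN-γ than in Ctr for all 4 numbers, Cd80 shows no common direction, Cd276 is 1.03 to 1.36 times its Ctr value, and Vsir is higher for numbers 2 to 4 with number 1 nearly level. Dexa replicate 3 is not drawn.

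Levels of different ligands were compared in TPM, which scales reads by transcript length and library. In Ctr-OPCs Cd276 stood first at 7.76 ± 0.398 TPM (SD, n = 4), 30.3 times the mean of Icosl, which followed at 0.256 ± 0.0834 TPM. The ranges of Icosl and Cd80 overlapped, Cd80 and Cd40 did not, and below them Cd40, Cd274, Lgals9, Pdcd1lg2 and Cd86 each overlapped with the next. In IFN-γ-treated OPCs Lgals9 (11 ± 1.79 TPM), Cd274 (10.8 ± 2.06 TPM) and Cd276 (10.1 ± 1.81 TPM) overlapped with each other at the top. Icosl lay 12.7 times below Cd276 at 0.793 ± 0.278 TPM, apart from both neighbours. Cd80 followed at 0.175 ± 0.0334 TPM and overlapped with Cd40, whose values of 0.0152 to 0.191 TPM rest on 2 to 6 reads.

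The gap to the MHC genes was wide. In IFN-γ-treated OPCs the TPM of H2-Aa was 628.9 to 1418 times that of Cd80 in the same library, whereas in Ctr-OPCs this ratio was 0.644 to 1.55. H2-Aa stood 12.9 to 23 times above Cd274 in IFN-γ-treated OPCs, and the class I heavy chain H2-K1 stood 87.3 to 113.0 times above it. The ratio of Cd274 to Cd80 itself went from 0.174 to 0.420 in Ctr-OPCs to 48.6 to 86.0 with IFN-γ. Lgals9 and Cd274 had a ratio of 0.936 to 1.09 in all 4 IFN-γ libraries.

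**Figure D3:**
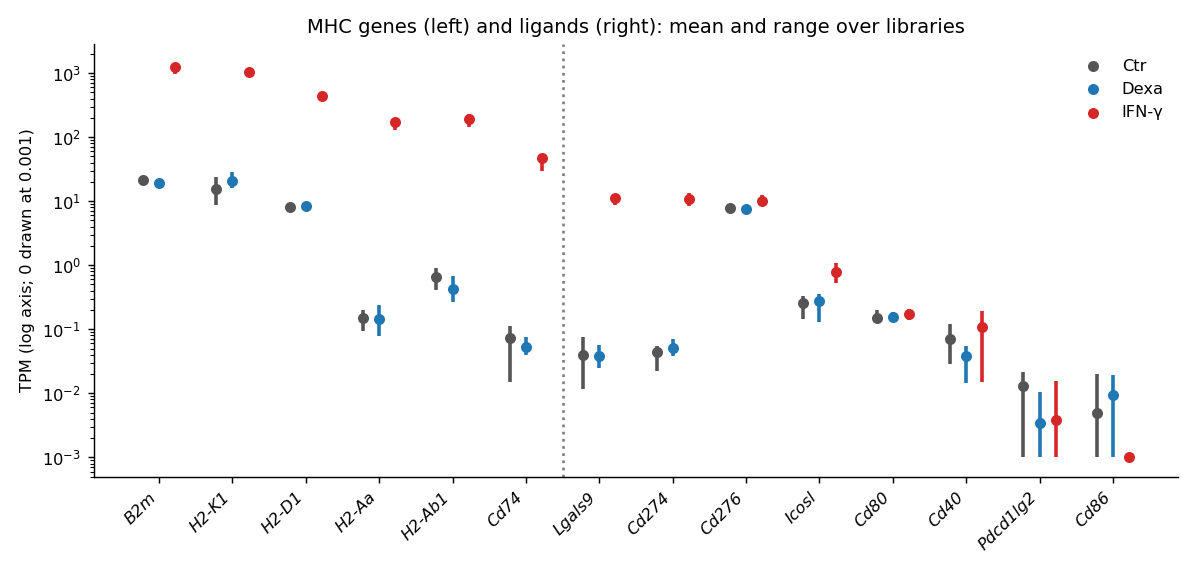
Level in TPM, on a log axis, of 6 MHC genes (left of the dotted line) and the 8 ligands (right) in Ctr, Dexa and IFN-γ libraries. Points are means over 4, 3 and 4 libraries, vertical lines run from the lowest to the highest library, and a value of 0 is drawn at 0.001. In IFN-γ-treated OPCs the drawn MHC genes stand above every ligand, Lgals9, Cd274 and Cd276 share a level near 10 TPM, and Cd80, Cd40, Pdcd1lg2 and Cd86 stay below 1 TPM.

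The Dexa comparison asks whether a glucocorticoid moves the same ligands, and it shares the Ctr libraries with the IFN-γ comparison. None of the 5 tested ligands passed the test, with 0 calls by DESeq2, 0 by edgeR and 0 with an unadjusted p under 0.05, against 0.547% of all genes tested called by DESeq2 and 0.123% by edgeR. Log2 fold changes were 0.23 for Cd274 (95% interval -0.58 to 1.04), 0.19 for Icosl (-0.65 to 1.02), 0.10 for Cd80 (-0.53 to 0.72) and 0.00 for Cd276 (-0.33 to 0.32). For Lgals9 the fold change of 0.02 had an interval of -1.29 to 1.32. The Dexa libraries of Icosl were uneven, with replicate 4 at 15.7 and replicates 1 and 2 at 47.5 and 48.0 normalised counts.

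In the direct contrast of IFN-γ-treated with Dexa-treated OPCs, Cd274 was higher by 7.52 ± 0.35 and Lgals9 by 7.87 ± 0.55 on the log2 scale (SE), with adjusted p of 3.26e-08 and 6.66e-07 by edgeR. Here too Lgals9 was tested only through its high IFN-γ libraries, so it had to differ. Over all genes 7.66% were called higher by DESeq2, 5.66% by edgeR and 17.2% by edgeR with replicate number as a term. Icosl was higher by 1.23 ± 0.42, with an adjusted p of 0.0275 by DESeq2 and 0.102 by edgeR, or 0.00181 by edgeR with that term. Its call by DESeq2 was lost without Dexa replicate 4 (0.90, adjusted p = 0.146), without IFN-γ replicate 1 (1.03, adjusted p = 0.111), without IFN-γ replicate 2 (1.2, adjusted p = 0.0957) and with only protein-coding transcripts (1.18, adjusted p = 0.0977), the last chosen after the data were seen.

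**Figure D4:**
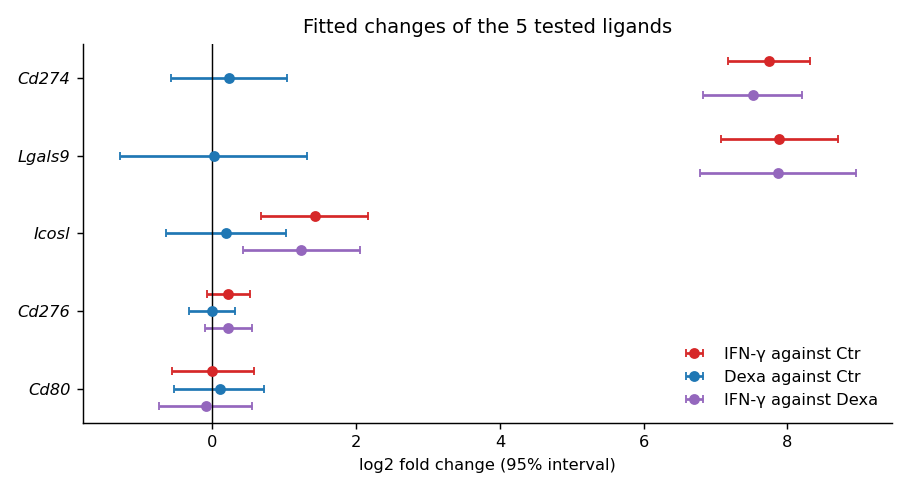
Log2 fold changes with 95% intervals for the 5 ligands that passed the filter on low counts, in IFN-γ against Ctr, Dexa against Ctr and IFN-γ against Dexa. Cd274 and Lgals9 lie between 7.5 and 8 in both IFN-γ contrasts, Icosl between 1.2 and 1.5, and all Dexa intervals include 0.

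A list of 23 further ligands of T and NK cell receptors was examined in the same fit. Of these, 12 passed the filter. With IFN-γ 5 rose by DESeq2, 4 rose by edgeR and 0 fell by either, with a median log2 fold change of 0.41. Over all genes tested 8.02% rose by DESeq2 and 6.06% by edgeR. The counts and the median include Tnfrsf14, Btn2a2 and Icam1, which passed the filter only through the IFN-γ libraries, so they had to differ once tested. With Dexa 0 of the 12 were called, by DESeq2 and by edgeR, against 0.547% and 0.123% of all genes tested, and 0 had an unadjusted p under 0.05. H2-T23, the mouse Qa-1 molecule that presents to CD94/NKG2 receptors, rose by 7.87 ± 0.20 on the log2 scale. Icam1, the adhesion ligand of LFA-1, had 9 to 33 reads in Ctr-OPCs and 1415 to 2359 with IFN-γ, a rise of 7.02 ± 0.40 on the log2 scale (adjusted p of 1.64e-06, edgeR).

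Tnfrsf14, which encodes HVEM, the partner of BTLA, had 0 reads in all Ctr and complete Dexa libraries and 62, 70, 64 and 70 in IFN-γ-treated OPCs. Against a floor of 3 reads per library it was at least 29.4-fold higher than in Ctr-OPCs. Btn2a2, a butyrophilin that restrains T cells, rose from 1, 12, 5 and 3 reads to 37, 25, 15 and 24 (log2 fold change 2.78 ± 0.54, adjusted p of 6.91e-06, DESeq2). Tnfrsf14, Btn2a2 and Icam1 passed the filter only through the IFN-γ libraries, where they were high, so they had to differ once tested. Vsir, which encodes the checkpoint protein VISTA, had 21, 39, 59 and 36 reads in Ctr-OPCs and 23, 79, 99 and 102 with IFN-γ. Its replicate 1 did not separate from Ctr. The log2 fold change of 1.48 ± 0.49 passed the test by DESeq2 (adjusted p = 0.0222) and not by edgeR (0.0877, or 0.00166 with replicate number as a term), and by DESeq2 it was lost without Ctr replicate 1 (0.0696) or 2 (0.097) or without IFN-γ replicate 2 (0.0549), 3 (0.108) or 4 (0.132).

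The TNF family ligand Tnfsf9 (4-1BBL) had a log2 fold change of 0.08 ± 0.18 and Tnfsf18 (GITRL) of -0.55 ± 0.52, neither past the test. The nectin family members Pvr and Nectin2 and the CD200R ligand Cd200 had 0.10 ± 0.13, -0.12 ± 0.08 and 0.09 ± 0.36. Nectin3 had 0.22 ± 0.14 and an adjusted p of 0.362 by DESeq2, or 0.0124 in the blocked fit. Of the 23, 10 stayed near zero, among them Tnfsf4 (OX40L), Cd70 and Cd48.

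**Figure D5:**
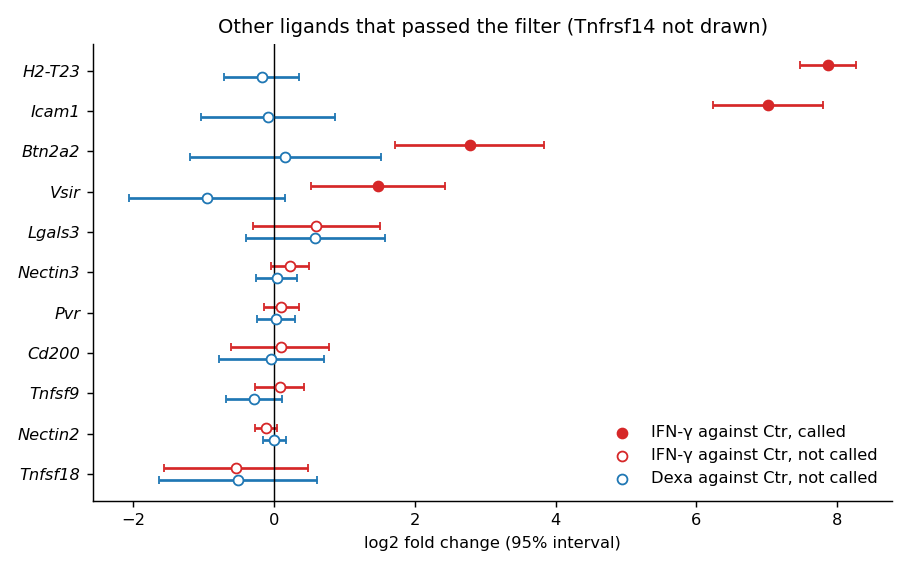
Log2 fold changes with 95% intervals for 11 of the 12 further ligands that passed the filter, in IFN-γ against Ctr and Dexa against Ctr. Filled points passed an adjusted p of 0.05 in DESeq2. H2-T23 and Icam1 lie above 7 with IFN-γ, Btn2a2 and Vsir between 1 and 3, and no Dexa point is filled. Tnfrsf14 is left out because it had 0 reads in every Ctr and complete Dexa library.

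None of the 10 T cell receptor genes for these ligands passed the filter. Pdcd1, the gene of PD-1, had at most 1 read in any complete library, Icos had 0 in all, and Havcr2, the gene of TIM-3, had at most 7.

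Among 12 genes that act upstream of PD-L1 or stabilise it, 6 rose with IFN-γ by DESeq2 and by edgeR, against 8.02% and 6.06% of all genes tested. They included Irf1 (6.01 ± 0.10 on the log2 scale) and Irf2 (1.17 ± 0.12), which encode interferon regulatory factors, Stat3 (1.77 ± 0.14), which carries cytokine signals to the nucleus, and the receptor-bound kinases Jak2 (1.16 ± 0.16) and Jak1 (0.63 ± 0.06). Jak2 ends 54374 bases before Cd274. Cmtm6, whose protein keeps PD-L1 on the cell surface, had 0.05 ± 0.08, and its relative Cmtm4 had -0.54 ± 0.26 with an adjusted p of 0.197 by DESeq2, or 1.34e-18 in the blocked fit. With Dexa 0 of the 12 were called by DESeq2 or edgeR, against 0.547% and 0.123% of all genes tested, and 0 had an unadjusted p under 0.05.

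Of 7 adaptors that act downstream of CD40, 6 passed the filter and 2 rose with IFN-γ, the ubiquitin ligase Birc3 (2.06 ± 0.39 on the log2 scale) and the NF-κB-inducing kinase Map3k14 (1.06 ± 0.19). Both were called by DESeq2 and by edgeR, where 8.02% and 6.06% of all genes tested rose. Traf5 had 0.90 ± 0.35 and an adjusted p of 0.07 by DESeq2, or 0.00729 in the blocked fit.

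Markers of cells that carry Cd80, Cd86 and Cd40 in other settings were low next to the OPC markers, but not all lay below Cd80. In Ctr-OPCs Cd68 had 42.1 ± 10.5 normalised counts, P2ry12 17.4 ± 5.59 and Csf1r 7.06 ± 3.09, against 24.3 ± 4.93 for Cd80 (SD, n = 4 each). Whether such cells contributed to the Cd80 reads was not tested. Of 10 microglia and macrophage markers, 3 passed the filter (P2ry12, Csf1r and Cd68) and 0 were called in IFN-γ-treated OPCs, by DESeq2 or edgeR, with 0 at an unadjusted p under 0.05. Over all genes tested 12.8% were called in either direction by DESeq2 and 8.44% by edgeR. Of 7 dendritic and B cell markers only Batf3, a transcription factor gene, passed, and it rose by 3.01 ± 0.75 on the log2 scale (adjusted p of 0.00102, DESeq2), having passed the filter only through the IFN-γ libraries. The summed count of that list was 10.3 to 30.3 in Ctr-OPCs and 65.5 to 98.4 with IFN-γ, of which Batf3 made up most, while Itgax, Flt3 and Xcr1 had at most 6 reads in any complete library. Of 4 astrocyte markers, all tested, Gfap rose from 20.2 ± 15 to 287.7 ± 94.1 normalised counts (SD, n = 4 each, adjusted p of 0.00333, edgeR). Aqp4 had a log2 fold change of -1.02 ± 0.51 and Aldh1l1 of 0.55 ± 0.54, with adjusted p of 0.208 and 0.635 by DESeq2, or 5.23e-05 and 4.77e-06 in the blocked fit. Slc1a2 had 0.30 ± 0.29 and passed neither. The summed astrocyte list overlapped between groups at 3043 to 9548 and 5253 to 9441. Among OPC markers C1ql1 fell by 2.20 on the log2 scale (adjusted p of 0.00914, DESeq2, and 0.0929, edgeR). In the blocked fit 5 of the 8 fell (C1ql1, Gpr17, Sox10, Cspg4 and Pdgfra), against 14.1% of all genes tested. The part of these shifts in the ligand values was not tested.

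The genes most like each induced ligand were found by Pearson's r of log2(normalised count + 1) over the 11 complete libraries, a description in which the points share the treatment split. For Cd274 they were Ifit3 (r = 0.998), an interferon-induced gene, Psmb8 (0.998), an immunoproteasome subunit, and Erap1 (0.997), a peptidase that trims peptides for class I. For Lgals9 they were the long non-coding RNA 9330175E14Rik (0.996), Parp10 (0.996) and Rtp4 (0.995). For Icosl they were Il13ra1 (0.974), a cytokine receptor subunit, Mgmt (0.971), a DNA repair protein, and Lrrk2 (0.968), a kinase. Cd274 and Lgals9 had an r of 0.993 with each other, and Icosl had 0.78 with Cd274.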

How the data were processed

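Total RNA-seq libraries of cultured mouse OPCs were analysed from transcript tables. Per the submitters' processing notes Salmon 0.8.2, STAR and DESeq2 were used with mm10/GRCm38, and the deposited tables give an estimated count (the reads Salmon assigned) and a TPM value for each transcript of a library. Whether strand was used in counting is not given in the sources used here. The authors also deposited 3 tables of their own DESeq2 comparisons (mean count, log2 fold change, standard error, Wald score, p-value and adjusted p-value per gene), which were not used.

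Estimated counts were summed per gene with GENCODE M21 and rounded, and TPM were summed per gene and used for levels only. The deposited table of Dexa replicate 3 was incomplete, so fits over all genes held 4 Ctr, 3 Dexa and 4 IFN-γ libraries. The 17919 genes that reached 10 counts in 4 or more libraries were tested by DESeq2 1.42.0 (Wald test on the group, one fit, no shrinkage, Benjamini-Hochberg over all genes tested). A call is an adjusted p under 0.05, two-sided, and edgeR 4.0.16 (quasi-likelihood test, TMM) was the alternative. Both were tested on simulated data first. Size factors were 0.572 to 1.61. Folds of a group against libraries all at 0 use a floor of 3 counts per library, and exact 95% binomial intervals of pooled ratios cover counting error only, since PCR copies were not told apart from molecules.

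The 8 ligands, the gene lists and the markers were chosen with earlier results of these data known. Genes of a list were named when called or when they define the list, and a few uncalled ones were named after their values were seen. In addition, for each induced ligand the 3 most correlated tested genes were named. Near zero means at most 10 reads in every complete library. The replicates came from different litters. Deviations from group means correlated at 0.404 to 0.722 between libraries of the same replicate number and at -0.614 to 0.495 between different numbers. These ranges overlap when all numbers are pooled. Within each other group that held its number, every library correlated most with the library of that number. For Dexa replicate 4, for instance, r was 0.612 with Ctr replicate 4 and 0.495 with Ctr replicate 3. The labels give the numbers, and the main tests held no term for them. Libraries of a group were compared as possible duplicates by chi-square, which was 23.6 or more for each degree of freedom, so none was a copy of another. Alternatives covered the test, normalisation, filter, replicate block, title prefix (shared by replicates 3 and 4, meaning not stated), groups in the fit, each library left out, all 12 libraries over genes listed whole, protein-coding transcripts only, and the way TPM was computed. Items withheld from this account are not reported here.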

Additional observations from a re-analysis of the deposited data

Results flagged for a closer look

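4 values stood apart. Replicate 1 of the Ctr-OPCs was far below the other Ctr libraries for Cd274, at 4.59 normalised counts from 5 reads against 8.95 to 9.77. Replicate 2 of the IFN-γ-treated OPCs was the only one of its group with a Pdcd1lg2 read (0.944 normalised counts). Replicate 1 of the Ctr-OPCs was the only one of its group with a Cd86 read (0.918 normalised counts). The criterion was Dixon's 95% value for the gap to the nearest library over the range, which chance passes in about 1 in 20 groups, and 3 of 17 groups of the ligands passed it. That rate does not apply to Pdcd1lg2 and Cd86, since a single read among libraries at 0 always passes. Outside the ligands' own counts, the antisense gene AC119228.1 within Cd274 had a mean of 495.9 normalised counts in IFN-γ-treated OPCs against 2.93 in Ctr-OPCs.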

How the results depend on the processing

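Under all 21 alternatives Cd274, Lgals9 and Icosl stayed called in IFN-γ against Ctr wherever they were in the fit, with log2 fold changes of 7.57 to 7.85, 7.64 to 8.43 and 1.21 to 1.66. For Lgals9 these calls carry no weight, since it passed the filter only through the IFN-γ libraries and had to differ once tested. The counts of ligands called below include it. The fit of all 12 libraries could hold only Icosl and Lgals9 of the ligands. The number of ligands called was 3 in each fit that held them all, 0 with Dexa, and 2 or 3 in IFN-γ against Dexa. The number of further ligands called with IFN-γ was 4 to 6, and 2 in the fit of all 12 libraries, which listed only some of them. Tnfrsf14, Btn2a2 and Icam1, which can be among those called, passed the main filter only through the IFN-γ libraries. Cd276 was never called and stayed positive in IFN-γ against Ctr (0.09 to 0.29) and in IFN-γ against Dexa (0.1 to 0.3). Directions of other values that were never called turned when 1 library was left out. For Cd80 the range was -0.14 to 0.16 in IFN-γ against Ctr, -0.10 to 0.25 in Dexa against Ctr and -0.23 to 0.10 in IFN-γ against Dexa. In Dexa against Ctr it was -0.06 to 0.35 for Cd274, -0.04 to 0.52 for Icosl, -0.07 to 0.11 for Cd276 and -0.55 to 0.56 for Lgals9. With all 12 libraries Lgals9 was at -0.23 in that comparison. The cause was not tested. Among the 8 ligands the replicate block changed the call of Icosl against Dexa in edgeR (adjusted p of 0.102 without it and 0.00181 with it) and no other call by DESeq2 or edgeR. Among the further ligands it changed Nectin3, Vsir (edgeR) and, against Dexa, Tnfrsf14, whose adjusted p by DESeq2 went from 1.9e-10 to 0.0941. Of the OPC markers 5 fell by DESeq2 with the block against 1 without it, where 14.1% and 4.83% of all genes tested fell. Over all genes the calls in IFN-γ against Ctr numbered 2302 by DESeq2, 1513 by edgeR, 5238 by DESeq2 with the replicate block and 5606 by edgeR with it. In Dexa against Ctr they numbered 98, 22, 460 and 282, and in IFN-γ against Dexa 2345, 1571, 5661 and 6045. A per-length level computed from counts moved 0 of 24 group means in TPM by more than their SD. Without a filter Cd40 could be tested and was not called, while Pdcd1lg2 and Cd86 received no adjusted p. The counts of Pdcd1lg2, Cd86 and Cd40 are too low to show any but a large change.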
